A study of Mus musculus with 24 samples.

Results

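The comparison described here is between hippocampal microglia of control mice at 6 months of age and those of control mice at 4 months, with 4 libraries at each age, 8 of the 24 libraries of the series. The libraries were chosen by their labels alone and not by any measured value. All mice were male, and the controls carry the label wt in a study of APPswe/PSEN1dE9 mice (APP/PS1), a transgenic model that deposits amyloid in the brain. Cells were freed from the hippocampus with enzymes in the cold and sorted as nucleated, propidium iodide negative, CD11b-high, CD45-intermediate and CD49d-negative cells, a gate for living microglia that keeps out most infiltrating leukocytes. RNA from each sort was sequenced in bulk from a low-input library, so fewer cells of a type and less RNA per cell cannot be told apart. The labels name no strain, no individual animals, no pooling of animals and no day of sorting. The p-values therefore measure the spread between these 8 samples, which may in part be technical, and age and any batch that went with it cannot be told apart. The APP/PS1 libraries of the same ages, 4 at 4 months and 4 at 6 months, serve as a second age comparison that shares no library with the first.

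Microglia are the resident macrophages of the brain. They persist for long periods, renew slowly within the tissue, and hold their identity through local signals, among which TGF-beta is the best known: microglia activate latent TGF-beta on their own surface, bind it with a heteromeric receptor, and the Smad proteins downstream keep up genes such as those for Tmem119 and P2ry12. Near amyloid plaques, microglia lose part of this homeostatic program and gain a disease-associated (DAM) one that includes Apoe, Cst7, Clec7a and Lpl. Between 4 and 6 months mice are adults, well short of the ages at which brain ageing is usually studied, so these groups show how far the controls of the amyloid mice differed between those ages.

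Library totals ran from 8941718 to 12090592 counts, and between 14129 and 17532 genes were detected. A count of 3 in a library, taken here as the floor, corresponded to 0.251 to 0.325 CPM, which stands for counts scaled by the library's total and its TMM factor, and it covers counting error only. The microglial identity genes were abundant in all 8 libraries, P2ry12 at 13900 to 23200 CPM and Cx3cr1 at 6070 to 10900 CPM, while the T and B cell genes Cd3e, Cd3d and Cd79a had no count in any of them. The lymphocyte list as a whole still summed to 1010 to 1140 CPM at 4 months and 903 to 1160 CPM at 6 months. Of its 19 genes, 2 reached 1 CPM in at least 4 libraries, Cd79b and Ighm. The 6-month replicate 3 stood apart: it lay at 131 on the first principal component (28.7% of the variance) with the other 7 libraries between −26.2 and −2.1, and its median correlation with the others was 0.825 against 0.868 to 0.891. The 4-month replicate 3 differed in another way, with Csf1r at 2730 CPM where the other 4-month libraries had 6730 to 6970 CPM. Many results are given also without the 6-month replicate 3. Other values of this comparison use all 8 libraries and can depend on it.

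No gene passed the test. Of 12893 genes with at least 1 CPM in at least 4 libraries, edgeR's quasi-likelihood test with Benjamini-Hochberg adjustment called 0 at an adjusted p under 0.05 (0% called), and the smallest adjusted p was 0.85. At an unadjusted p under 0.05 there were 588 genes, 4.56% of those tested, of which 269 were higher at 6 months (2.09%) and 319 lower (2.47%). Without the 6-month replicate 3, 12685 genes were tested, 0 were called (0%) and 605 had an unadjusted p under 0.05 (4.77%), 257 of them higher (2.03%) and 348 lower (2.74%). DESeq2 on the same genes called 18 (0.14%), 6 higher and 12 lower at 6 months, and 30 (0.236%) without the 6-month replicate 3; limma-voom called 0 (0%). Replicates varied by 54.9% (the biological coefficient of variation of edgeR), or by 48.3% once the 6-month replicate 3 was left out. Every difference between 4 and 6 months in the controls that is named below is therefore a value that edgeR did not call, and the adjusted p of DESeq2 is given for each named gene that DESeq2 called with all 8 libraries.

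The values below are for the 12 genes lower and the 12 genes higher at 6 months with the smallest p, among genes with a mean of at least 5 CPM at one age. For all 12 of the lower genes the highest 6-month library lay below the lowest 4-month library, a separation shown by 1.88% of all genes tested, and for 11 of the 12 higher genes the reverse held, as it did for 2.09% of all genes tested. Without the 6-month replicate 3 the ages did not overlap for any of the 24 genes, and this held for 3.28% of all genes tested on the lower side and 3.68% on the higher side. The genes were picked by p in this same comparison, so those counts describe the choice. Their fitted log2 fold changes ran from −3.39 to −0.56 on the lower side and from 0.44 to 3.16 on the higher side, with edgeR adjusted p from 0.85 to 0.98 on both sides.

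**Figure D1:**
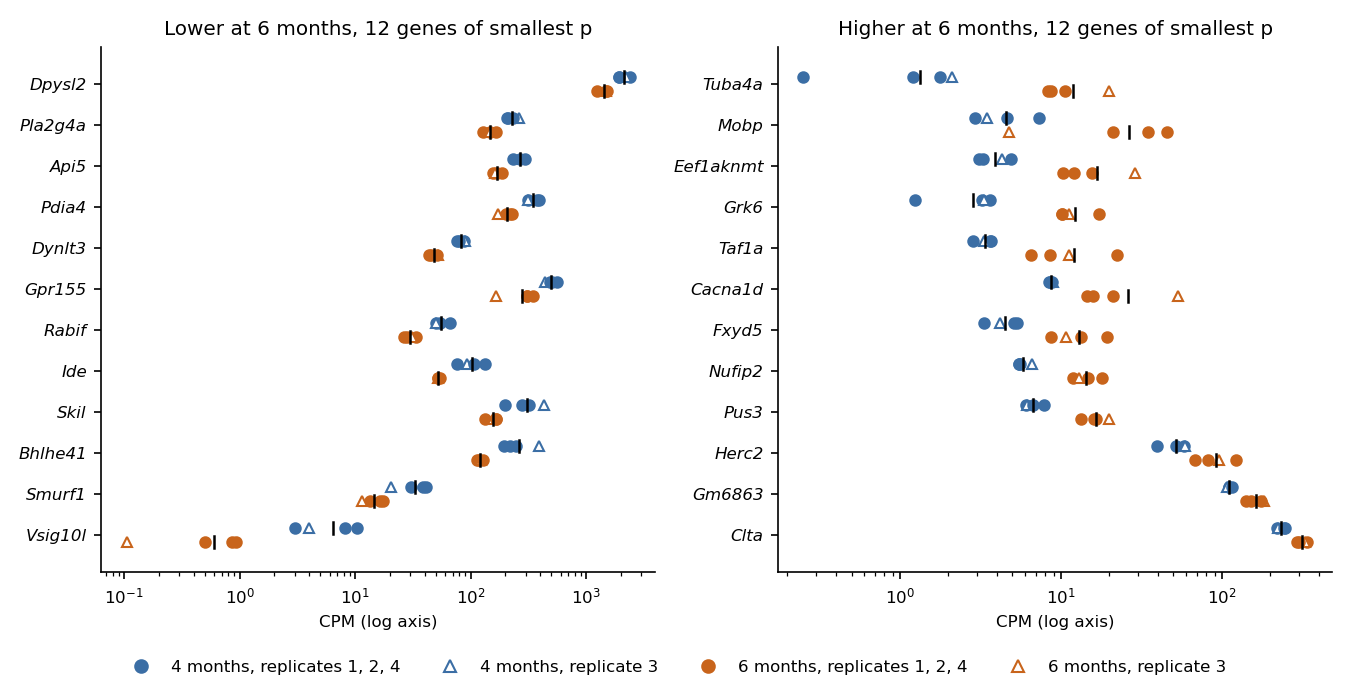
CPM on a log axis of the 12 genes lower (left) and the 12 genes higher (right) at 6 months with the smallest p, ordered by fold change; each point is 1 of 8 control libraries, triangles are the replicate 3 of each age and black ticks are group means. The 6-month Mobp value of replicate 3, at 4.74 CPM, lies among the 4-month values, while the other 6-month libraries lie between 21.1 and 45.9 CPM.

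The gene with the smallest p of these 24 encodes a protein of the endoplasmic reticulum. Pdia4 (ENSMUSG00000025823), a disulfide isomerase that helps secreted proteins fold, stood at 312, 379, 311 and 392 CPM in the 4-month replicates 1 to 4 and at 203, 219, 172 and 226 CPM in the 6-month ones. The lowest 4-month library was above the highest 6-month library, with a mean 1.70 times higher at 4 months. The fitted log2 fold change was −0.76 ± 0.14 (SE), with an edgeR adjusted p of 0.85 and a DESeq2 adjusted p of 0.0034. Without the 6-month replicate 3, which was the lowest of its group, the log2 fold change was −0.69 ± 0.14 and the DESeq2 adjusted p 0.0076.

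Other chaperones of the same compartment showed smaller differences. Hspa5, the chaperone BiP of the endoplasmic reticulum, measured 2620 ± 226 CPM (SD, n = 4) at 4 months and 2010 ± 402 CPM (SD, n = 4) at 6 months. Its log2 fold change of −0.39 ± 0.16 became −0.25 ± 0.11 without the 6-month replicate 3, which had 1420 CPM. Pdia6, another isomerase, was at 707 to 773 CPM at 4 months and at 533 to 680 CPM at 6 months, without overlap, and Pdia3 was at 2420 to 2990 CPM and 1710 to 2480 CPM, with overlap. On the list of heat shock and unfolded protein response genes, 21 of 23 tested members had a fitted log2 fold change below 0 and 2 above it, whereas 51.3% of all genes tested were above 0. The list's median was −0.17, also without the 6-month replicate 3, beside 0.01 for all genes tested (50.7% of all genes were above 0 in the fit without that library), and none of its members was called by edgeR. The 2 members above 0 were Atf4 (0.35 ± 0.33, and 0.14 ± 0.33 without the 6-month replicate 3) and Ddit3 (0.14 ± 0.31, and 0.00 ± 0.32 without it). These encode transcription factors of the stress response, as does Xbp1 on the same list, which was at −0.07. Summed over the list, the 4-month libraries lay between 13000 and 13700 CPM and the 6-month libraries between 11000 and 12300 CPM.

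Of 17 tested genes of the TGF-beta pathway, 3 were lower in every 6-month library than in any 4-month library and 0 were higher in that way, beside 1.88% and 2.09% of all genes tested. This and the other gene lists were chosen with earlier results of these data known, so counts and medians over their members are no independent test. Tgfbr1 (ENSMUSG00000007613), the type I receptor kinase for TGF-beta, had 2620, 2200, 2350 and 2210 CPM at 4 months and 1600, 1820, 1220 and 1790 CPM at 6 months. All 6-month libraries were lower than all 4-month libraries, and the log2 fold change of −0.54 ± 0.14 was −0.43 ± 0.11 without the 6-month replicate 3 (edgeR adjusted p 0.98, DESeq2 0.17). Skil, which encodes SnoN, a repressor that binds Smads and is itself induced by TGF-beta, had 320, 280, 431 and 197 CPM at 4 months and 133, 165, 156 and 167 CPM at 6 months. The spread was wide at 4 months, where replicate 3 was highest, and narrow at 6 months. The log2 fold change was −0.98 ± 0.22 (edgeR adjusted p 0.98, DESeq2 0.02), and DESeq2 did not call Skil without the 6-month replicate 3. Smurf1, a ubiquitin ligase that marks Smads and receptors of this family for degradation, had 40.9, 30.7, 20.4 and 39 CPM at 4 months and 16.3, 13.5, 11.4 and 17.3 CPM at 6 months. Replicate 3 was the lowest library at each age for Smurf1, the groups did not overlap, and the log2 fold change was −1.16 ± 0.30.

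The rest of the pathway was more mixed. Nrros, which tethers latent TGF-beta on microglia so that it can be activated, measured 671 ± 219 CPM (SD, n = 4) at 4 months and 450 ± 68.5 CPM (SD, n = 4) at 6 months, with overlap through the 4-month replicate 3 at 391 CPM. Tgfb1, the ligand itself, was at 10.4 to 19.1 CPM and 6.17 to 12.5 CPM, and Smad3, a receptor-activated Smad, at 53.6 to 74.3 CPM and 38.1 to 69.6 CPM, both with overlapping groups. On this list 13 of 17 tested members had a log2 fold change below 0 and 4 above it, with a median of −0.31. The members above 0 were Smurf2 (0.82), Smad7 (0.36), Smad4 (0.30) and Itgb5 (0.12). Without the 6-month replicate 3 the counts were 14 and 3 and the median was −0.50, and an unadjusted p under 0.05 was reached by 7 members, all lower, in place of 4 (2.74% and 2.47% of all genes tested were lower with such a p). The summed level of the list was 4660 to 5130 CPM at 4 months and 3510 to 3850 CPM at 6 months, with the replicate 3 of each age inside the range of its group. Tgfbr1 was the largest part of this sum, which thus largely repeats the genes described above.

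**Figure D2:**
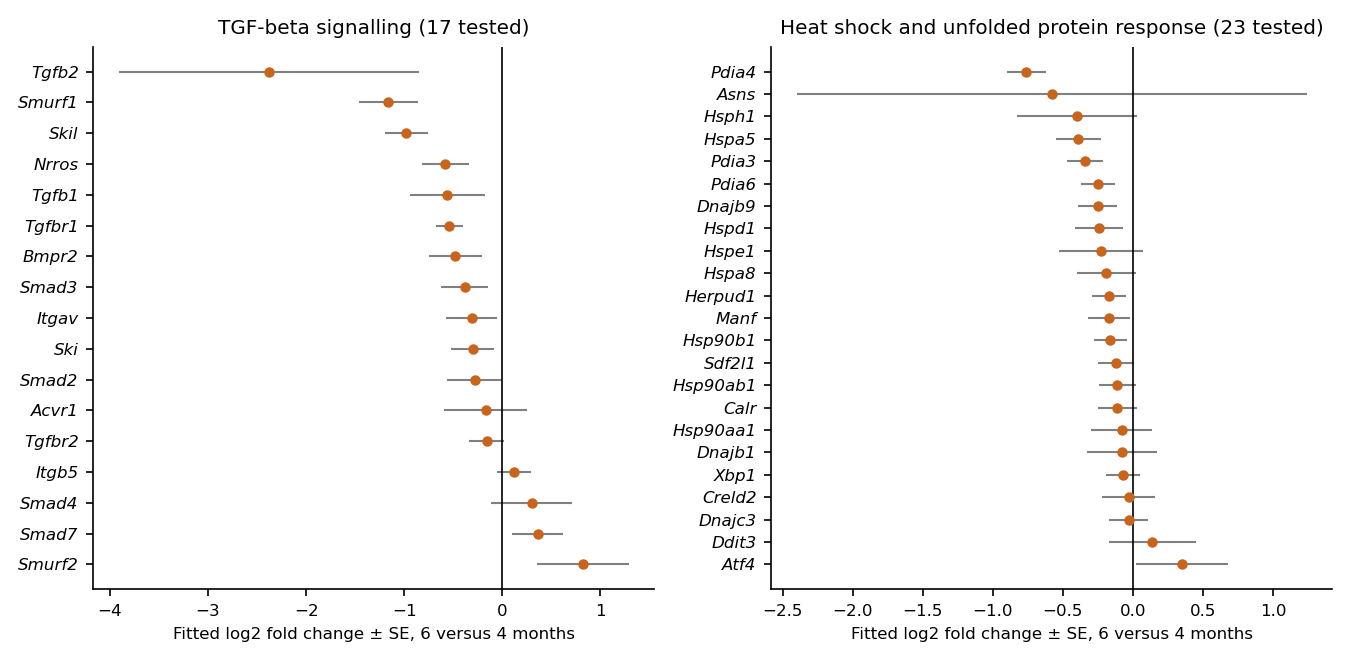
Fitted log2 fold change ± SE (edgeR, 6 versus 4 months, 8 control libraries) of the tested members of the TGF-beta list (left, 17 genes) and of the heat shock and unfolded protein response list (right, 23 genes); the vertical line marks 0. On the left 13 points lie below 0 and on the right 21, with the Tgfb2 and Asns intervals far wider than the others.

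A group of genes of unrelated function made up the remainder of the lower side. Bhlhe41 (ENSMUSG00000030256), a transcriptional repressor that feeds back on the circadian clock, had 220, 248, 390 and 194 CPM at 4 months and 113, 117, 123 and 129 CPM at 6 months. The 6-month libraries were close together and all below the lowest 4-month library, and the log2 fold change was −1.13 ± 0.21 with an edgeR adjusted p of 0.85 and a DESeq2 adjusted p of 0.003. The tested clock genes did not share one direction: of 16, Bhlhe41 among them, 8 were above and 8 below 0, with a median of 0.05. Without the 6-month replicate 3 the counts were the same and the median was 0.11. Hlf, an output factor of the clock, was 1.32 ± 0.58 and Nr1d2, a nuclear receptor that represses clock genes, 0.71 ± 0.31 on the log2 scale. The labels used here give no hour of collection.

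Ide encodes insulin-degrading enzyme, a metalloprotease that also cleaves amyloid-beta peptide. It had 76.6, 133, 93.9 and 107 CPM at 4 months and 52, 53.8, 52.3 and 52.1 CPM at 6 months. The 6-month libraries were nearly equal and lay below all 4-month libraries, and the log2 fold change was −0.96 ± 0.20 (edgeR adjusted p 0.85, DESeq2 0.0057), the same value without the 6-month replicate 3. Gpr155, a lysosomal membrane protein that senses cholesterol, had 559, 502, 442 and 491 CPM at 4 months and 307, 307, 166 and 345 CPM at 6 months. Here the 6-month replicate 3 was well below its group, and without it the log2 fold change went from −0.82 ± 0.21 to −0.64 ± 0.13 and the DESeq2 adjusted p from 0.13 to 0.0072. The lysosomal proteins Ctsc (a cathepsin), Lamp2 (a membrane protein of the lysosome) and Lipa (the acid lipase, counted on the lipid list) had log2 fold changes of −0.32, −0.36 and −0.41. Each was lower without overlap between the ages, as were 1.88% of all genes tested. Of 29 tested genes of phagocytosis and the lysosome, 21 were below 0, with a median of −0.16, and 3 were lower without overlap. Lamp1, on the same list, went the other way (0.62, with overlap). Without the 6-month replicate 3, 22 of the 29 were below 0 with a median of −0.14.

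Dynlt3, a light chain of the dynein motor, had 76.8, 87.3, 88.9 and 80 CPM at 4 months and 43.5, 45.7, 51.8 and 50.9 CPM at 6 months. Both groups were tight and did not overlap (log2 fold change −0.79 ± 0.17; edgeR adjusted p 0.85, DESeq2 0.003). The other members of this side were Api5, an inhibitor of apoptosis (−0.64), Dpysl2, a microtubule-binding protein (−0.56), Pla2g4a, the phospholipase that releases arachidonic acid (−0.63), Rabif, a chaperone of Rab GTPases (−0.89), and Vsig10l (−3.39 ± 0.82, with 0.105 to 0.922 CPM at 6 months). DESeq2 called all 5, with an adjusted p of 0.0036 for Api5, 0.014 for Rabif and 0.02 for each of the others, and without the 6-month replicate 3 all but Pla2g4a (0.055). Xrcc3, a DNA repair gene chosen after its values were seen, had 123 counts over the 4-month libraries and 0 over the 6-month ones, at least 8.87-fold lower at 6 months against a floor of 3 counts per library (DESeq2 adjusted p 0.0036). Its 4-month level was only 2.01 to 4.25 CPM. Xrcc3 and Vsig10l were under 1 CPM in every 6-month library, so they passed the filter only through the 4-month libraries. Their lack of overlap was thus fixed by the filter, and their p-values are no support for a difference.

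Myelin genes were among the higher genes. Mobp (ENSMUSG00000032517), a structural protein of myelin made by oligodendrocytes, had 4.6, 7.35, 3.45 and 2.92 CPM at 4 months and 34.9, 45.9, 4.74 and 21.1 CPM at 6 months. The 6-month replicate 3 lay inside the 4-month range and the other 6-month libraries above it. The log2 fold change was 2.54 ± 0.63 with all libraries (edgeR adjusted p 0.98, DESeq2 0.026) and 2.89 ± 0.43 without the 6-month replicate 3 (edgeR adjusted p 0.98, DESeq2 1.7e-06). Mbp, myelin basic protein, had 10.8, 52, 23.6 and 51.5 CPM at 4 months and 133, 176, 41.5 and 120 CPM at 6 months, with a log2 fold change of 1.77 ± 0.54. The 6-month replicate 3 was again the lowest of its age, and only without it did the ages not overlap (2.05 ± 0.47; DESeq2 adjusted p 0.0081).

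Of 8 tested genes of the oligodendrocyte lineage, 7 had a log2 fold change above 0 and 1 below, with a median of 1.00, and without the 6-month replicate 3 all 8 were above 0 with a median of 1.39. The summed level of the list was 207, 402, 235 and 243 CPM at 4 months and 604, 650, 168 and 503 CPM at 6 months. Pdgfra, which marks oligodendrocyte precursors, had no count in any of the 8 libraries. Whether the sorted microglia themselves held these transcripts was not tested.

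Of the marker sums of other cell types, those for choroid plexus, astrocytes and monocytes were also lowest in the 6-month replicate 3, while its sums for neutrophils (347 CPM), vascular cells (977 CPM) and border-associated macrophages (1070 CPM) were the highest of the 6-month libraries. The choroid plexus and ependyma list summed to 587, 1540, 78.5 and 1060 CPM at 4 months and to 2800, 1190, 3.9 and 1790 CPM at 6 months, so the replicate 3 of each age was the lowest of its group. Ttr, the transthyretin gene that choroid plexus epithelium expresses strongly, had 331, 537, 20.6 and 488 CPM at 4 months and 1520, 526, 0 and 884 CPM at 6 months. Astrocyte genes had a median log2 fold change of 0.67 over 11 tested members and 1.00 without the 6-month replicate 3, but 0.06 without the 6-month replicate 2, and their summed level overlapped (493 to 538 and 298 to 631 CPM). Monocyte genes summed to 9.95 to 40.9 CPM and 2.11 to 27.1 CPM, neutrophil genes to 164 to 519 CPM and 230 to 347 CPM, and neuronal genes to 26.8 to 29.8 CPM and 24.8 to 62.9 CPM. The sums for border-associated macrophages (784 to 1030 and 696 to 1070 CPM) and vascular cells (813 to 1020 and 902 to 977 CPM) include members that microglia also express. Of 11 tested genes of border-associated macrophages, 6 had a log2 fold change above 0 and 5 below. The list's median was 0.11, and 0.02 without the 6-month replicate 3. Among those below 0, F13a1 had 13.9, 7.94, 11.5 and 33.5 CPM at 4 months and 1.49, 10.2, 1.9 and 1.23 CPM at 6 months. The part of these cells in the differences of other genes was not tested.

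**Figure D3:**
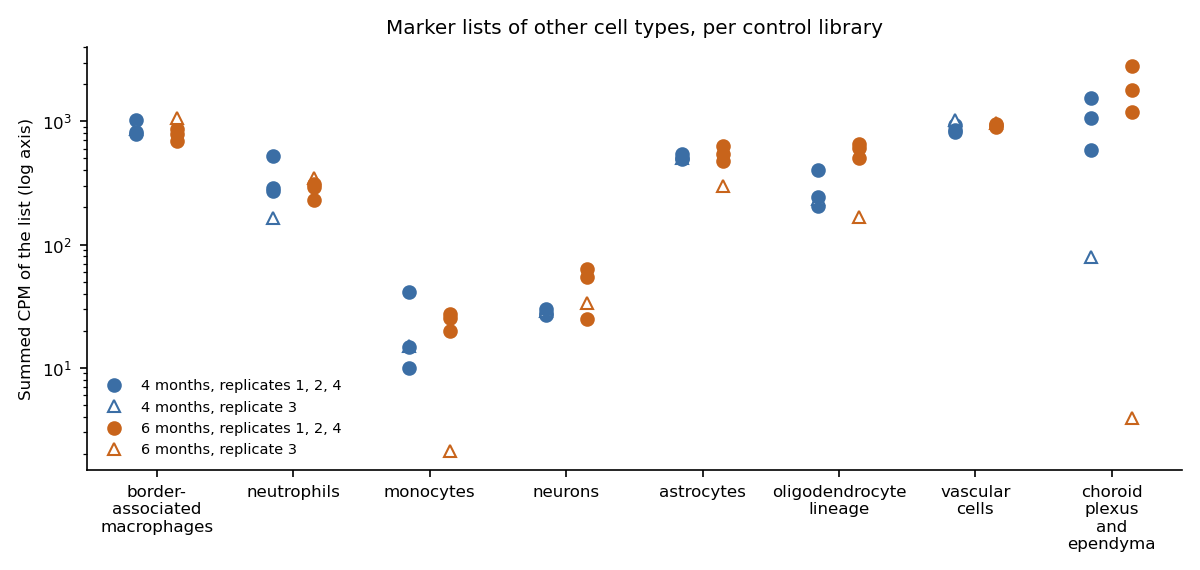
Summed CPM (log axis) of the marker lists of 8 other cell types in each control library; blue is 4 months, orange is 6 months and triangles are the replicate 3 of each age. The 6-month replicate 3 is lowest for choroid plexus and ependyma (3.9 CPM), monocytes (2.11 CPM), oligodendrocyte lineage (168 CPM) and astrocytes (298 CPM).

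The other higher genes had mostly low counts. Eef1aknmt, a methyltransferase that modifies the elongation factor eEF1A, had 3.09, 4.87, 4.28 and 3.28 CPM at 4 months and 12.1, 10.3, 28.8 and 15.7 CPM at 6 months, with the 6-month replicate 3 highest and no overlap. The log2 fold change was 2.1 ± 0.44, or 1.71 ± 0.40 without that library (edgeR adjusted p 0.85 and 0.98, DESeq2 0.0059 and 0.035). Tuba4a, an alpha-tubulin, had 0.251, 1.2, 2.09 and 1.77 CPM and then 8.35, 10.6, 19.8 and 8.7 CPM, again with no overlap (3.16 ± 0.67, DESeq2 adjusted p 0.0034). With 1 library left out its log2 fold change was 2.79 to 3.45, and DESeq2 called it also without the 6-month replicate 3. Grk6, a kinase of G protein-coupled receptors, was at 1.24 to 3.6 CPM and 10.1 to 17.3 CPM (DESeq2 adjusted p 0.019), and Pus3, a pseudouridine synthase of transfer RNA, at 6.1 to 7.86 CPM and 13.4 to 19.9 CPM (DESeq2 adjusted p 0.029, and 0.11 without the 6-month replicate 3).

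Cacna1d, a voltage-gated calcium channel subunit, was at 8.37 to 8.87 CPM at 4 months and at 15.8, 21.1, 53.2 and 14.6 CPM at 6 months. Its log2 fold change was 1.60 ± 0.44, and 0.99 ± 0.32 without the 6-month replicate 3, which had the highest value. Fxyd5, a regulator of the sodium pump, was at 3.34 to 5.3 CPM and 8.7 to 19.3 CPM (1.53 ± 0.41). Clta, the clathrin light chain that coats endocytic vesicles, had a smaller and tighter difference, from 219 to 246 CPM to 293 to 337 CPM (0.44 ± 0.12; DESeq2 adjusted p 0.088). The remaining genes were Nufip2, an RNA-binding partner of FMRP (1.32), Taf1a, a subunit of the RNA polymerase I selectivity factor (1.84), Herc2, a large ubiquitin ligase (0.82), and Gm6863 (0.55), a predicted gene whose reads may be shared with a similar sequence. Gm43466, another predicted gene chosen after its values were seen, had 0 counts at 4 months and 151 at 6 months, at least 14.7-fold higher against the same floor (DESeq2 adjusted p 0.0012). It passed the filter only through its 6-month libraries, so its lack of overlap was fixed by the filter and the p-value is no support for a difference. DESeq2 did not call it without the 6-month replicate 3.

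The genes that define microglia overlapped between the ages in most cases. Cx3cr1, the fractalkine receptor, had 10700, 10400, 6070 and 10900 CPM at 4 months and 7550, 8790, 6750 and 8330 CPM at 6 months. The 4-month replicate 3 was below all the 6-month libraries and the other 4-month libraries were above them, so the groups overlapped through that library only (log2 fold change −0.28 ± 0.18). Tmem119 (3450 to 7390 and 4940 to 6020 CPM) and Csf1r (2730 to 6970 and 4150 to 5690 CPM), the receptor for the survival factor CSF1, showed the same pattern. Without the 4-month replicate 3 the log2 fold change was −0.44 for Cx3cr1, −0.55 for Csf1r (−0.32 with all libraries) and −0.44 for Tmem119 (−0.23 with all libraries), with edgeR adjusted p of 0.67 to 0.73. DESeq2 without the replicate 3 of both ages, a fit chosen after the data were seen, gave adjusted p of 0.028 for Cx3cr1 and Csf1r and 0.041 for Tmem119. The 4-month replicate 3 stood out by its low values of these same 3 genes. Fits that leave it out therefore cannot serve as a test of them. P2ry12, the receptor for ADP, was at −0.27 ± 0.14, and Sall1, a transcription factor of microglial identity, at −0.10 ± 0.16. Fcrls, an Fc receptor-like gene, was at 4880 to 5670 CPM and 3790 to 4620 CPM without overlap (−0.28 ± 0.10), and Siglech, a sialic acid-binding lectin, at 1110 to 1200 CPM and 1220 to 1460 CPM in the opposite direction (0.20 ± 0.10). On the homeostatic list 22 of 28 genes were below 0, with a median of −0.21 in both fits. With library totals alone as the scale the median over all genes moved from 0.01 to 0.08, and that of the homeostatic list from −0.21 to −0.14.

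Genes of the disease-associated state had fitted differences of both signs in the controls. Cst7, a cysteine protease inhibitor, had 12, 5.04, 11.2 and 13.1 CPM at 4 months and 13.8, 12.1, 13.5 and 12 CPM at 6 months. The groups overlapped, with a log2 fold change of 0.32 ± 0.37. Clec7a, a receptor for fungal glucans, was at 7.17 to 25.6 CPM and 14.4 to 31.9 CPM, and Lpl, lipoprotein lipase, at 5.18 to 23.7 CPM and 5.95 to 40.3 CPM. Apoe, which carries lipids, had 962, 1210, 637 and 1160 CPM at 4 months and 2090, 1800, 1100 and 1160 CPM at 6 months, and Lyz2, lysozyme, was at 165 to 367 CPM and 321 to 629 CPM, both with overlap (0.63 ± 0.25 and 0.68 ± 0.27). Spp1, osteopontin, was higher in every 6-month library (4.47 to 13.8 CPM) than in any 4-month library (0.974 to 4.02 CPM), as was Fth1, the ferritin heavy chain (1380 to 1630 and 1060 to 1320 CPM). Such a separation was shown by 2.09% of all genes tested. With 1 library left out, the log2 fold change ran from 0.43 to 0.77 for Apoe, 0.46 to 0.84 for Lyz2 and 0.27 to 0.4 for Fth1. The median over 11 genes of the first stage of this program was 0.18, with 8 above 0. Without the 6-month replicate 3 it was −0.00, with 5 above 0. Over 26 genes of the second stage it was 0.09 with 18 above 0, and 0.03 with 16 above 0 without that library. Trem2, the lipid receptor on which the second stage depends, was at 0.10 ± 0.13 with that library and −0.03 ± 0.10 without it.

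Medians of the remaining lists are given with all 8 libraries and without the 6-month replicate 3. Of 36 tested ribosomal protein genes 31 were above 0, with a median of 0.28 that was 0.13 without that library. Rpl41 had 54.6 to 62.5 CPM at 4 months and 77.5, 77, 119 and 81.8 CPM at 6 months, without overlap, but reads of ribosomal protein genes can be shared with processed pseudogenes and their counts are uncertain. Nuclear genes of oxidative phosphorylation were above 0 in 29 of 32 cases (median 0.23, and 0.14 without the library), with Cox8a of complex IV at 93.8 to 113 CPM and 116 to 173 CPM, and all 10 tested mitochondrially encoded genes were above 0 (median 0.28, and 0.17). Splicing and nuclear-retained RNA genes were above 0 in 19 of 23 cases (median 0.16, and 0.19), including Rbm25, a splicing regulator, at 67.1 to 110 CPM and 112 to 182 CPM. Interferon-response genes were above 0 in 17 of 27 cases with a median of 0.18 (16 of 27 and 0.11 without the library), and none had an unadjusted p under 0.05 in either fit. Glucocorticoid-response genes were above 0 in 11 of 13 cases with a median of 0.32, of which 1, Sult1a1, had an unadjusted p under 0.05, and without the library the median was 0.25 with 0 such members. Proliferation genes were divided, 12 above and 12 below 0, with the replication helicase subunits Mcm4 (−1.32 ± 0.38) and Mcm2 (1.25 ± 0.47, and 0.65 ± 0.38 without the library) on opposite sides, and without the library no member was higher with an unadjusted p under 0.05. Of 18 tested immediate early and dissociation genes, 9 were above and 9 below 0, with a median of 0.12 (0.07 without the library). Egr3, an immediate early transcription factor, was at 1.09 to 2.48 CPM at 4 months, while 3 of the 6-month libraries had 0 and replicate 2 had 0.325 CPM, its floor. Egr3 thus passed the filter only through its 4-month libraries, which fixed its lack of overlap.

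**Figure D4:**
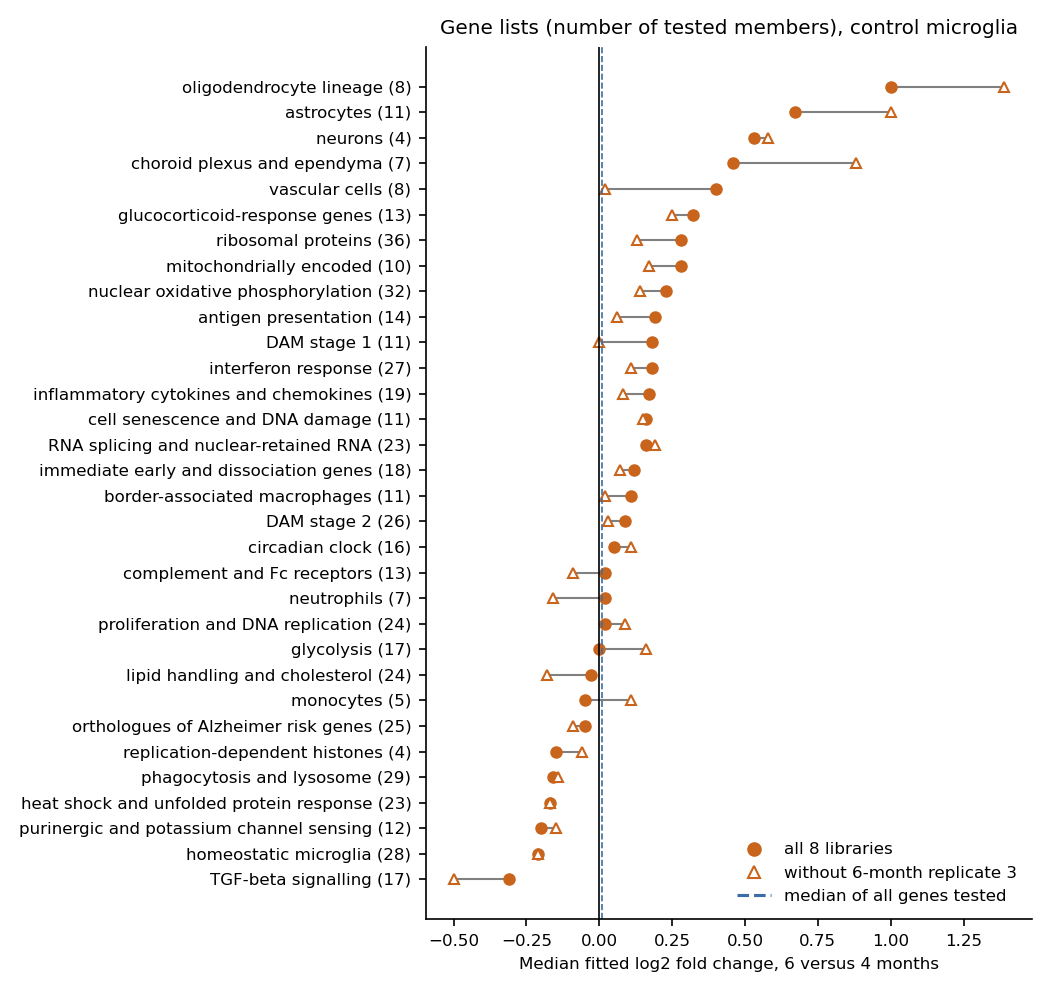
Median fitted log2 fold change, 6 versus 4 months, of each gene list with tested members in brackets; filled circles use all 8 control libraries, open triangles leave out the 6-month replicate 3, and the dashed line is the median of all genes tested. The TGF-beta list is lowest in both fits (−0.31 and −0.50) and the oligodendrocyte list highest (1.00 and 1.39), and the lists for lymphocytes and erythrocytes are not drawn.

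The APP/PS1 libraries gave values for the same genes in other samples. In that comparison edgeR tested 12966 genes and called 3 (0.0231% called), Cst7, Clec7a and Lpl, all of which rose, and 1555 genes (12%) had an unadjusted p under 0.05, 728 of them higher (5.61%) and 827 lower (6.38%). All 12 of the lower genes had a log2 fold change below 0 there too, with a median of −0.39 beside −0.86 in the controls, and of the 12 higher genes 8 had the same sign and 4 the opposite one. Over all genes tested in both genotypes, 7865 of 12449 (63.2%) had the same sign, and among the genes with an unadjusted p under 0.05 in the controls 470 of 577 (81.5%) did. None of the 24 genes was called by edgeR in APP/PS1 microglia, where their smallest adjusted p was 0.16.

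Pdia4 measured 391 ± 62.9 CPM (SD, n = 4) in APP/PS1 microglia at 4 months and 233 ± 16.9 CPM (SD, n = 4) at 6 months, a log2 fold change of −0.74 ± 0.14 beside −0.76 in the controls. Gpr155 was at 473 to 597 CPM and 188 to 356 CPM (−0.98 ± 0.20), Ide at 64.5 to 86 CPM and 27 to 63.8 CPM (−0.99 ± 0.29), and Tgfbr1 at 2130 to 3180 CPM and 1250 to 1990 CPM (−0.69 ± 0.17). Those 4 genes were lower at 6 months without overlap in both genotypes. In APP/PS1 microglia 4.43% of all genes tested were lower in that way and 5.04% higher. Tgfbr1 was not among the 12 lower genes of smallest p. Of those 12 genes, 3 were lower without overlap in APP/PS1 microglia. Of the 12 higher genes, 3 were higher there without overlap. Mobp was at 2.76 to 7.03 CPM and 6.53 to 72 CPM (2.65 ± 0.65), and Fxyd5 at 0.604 to 7.38 CPM and 12.2 to 25.3 CPM (2.01 ± 0.62). The genes that went the other way were Tuba4a (−1.85 ± 1.26), Taf1a (−0.99 ± 0.40), Eef1aknmt (−0.95 ± 0.65) and Pus3 (−0.54 ± 0.43), and Dynlt3 was nearly level there (75.6 ± 5 and 74.1 ± 3.47 CPM, SD, n = 4). The TGF-beta list had 7 of 18 tested members above 0 in APP/PS1 microglia with a median of −0.15 (51.2% of all genes tested were above 0), and the heat shock and unfolded protein response list 5 of 22 with a median of −0.19.

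**Figure D5:**
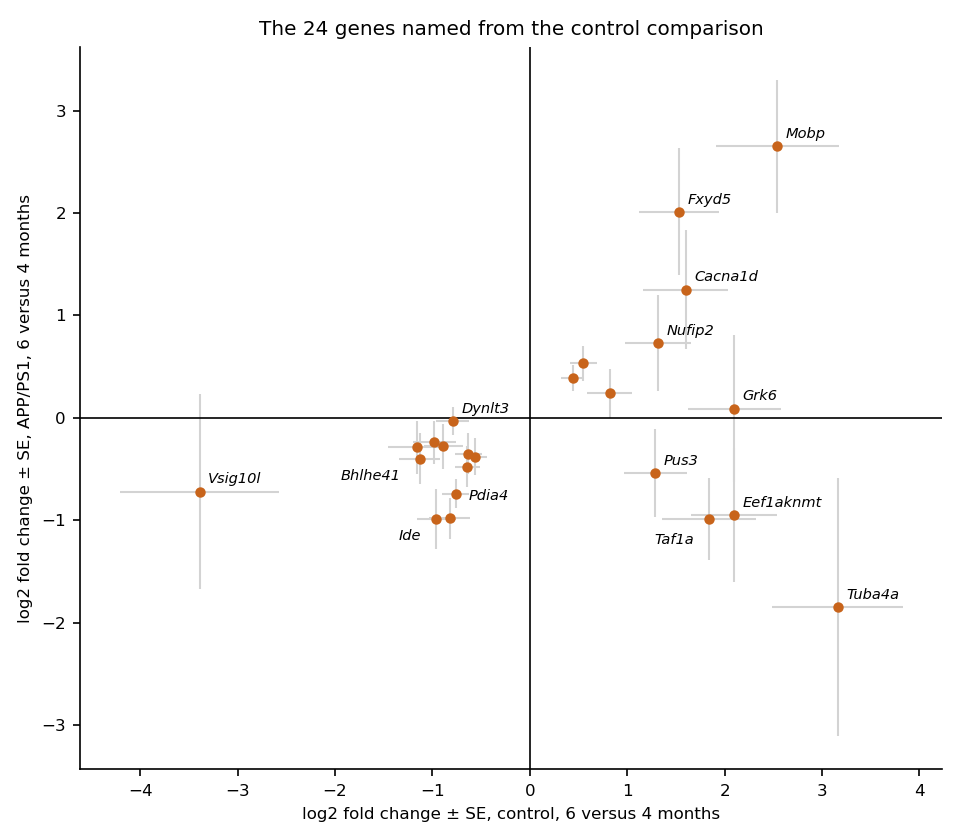
Fitted log2 fold change ± SE, 6 versus 4 months, of the 24 genes in control microglia (horizontal axis) and in APP/PS1 microglia (vertical axis), 8 libraries each with none in common. All 12 genes lower in the controls lie below 0 on both axes, and Eef1aknmt, Tuba4a, Pus3 and Taf1a lie at lower right.

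The difference between the genotypes was tested directly with the interaction of genotype and age in 16 libraries. Of 14303 genes edgeR called 1 (0.00699% called), Cst7, whose age difference was larger in APP/PS1 microglia by 3.44 ± 0.35 on the log2 scale (adjusted p 0.00044). For all 24 genes above, the adjusted p of the interaction was 1.0, and 464 of all genes tested (3.24%) had an unadjusted p under 0.05. The 24 genes were picked by their p in control libraries that also enter this test, so their own unadjusted p-values are not counted. DESeq2 called 5 genes in the same test, Cst7, Dynlt3 and Taf1a, and also Peg3 and Psmd14, which are named after their values were seen. The counts of App (118 ± 21.2 and 138 ± 90.4 CPM in the controls and 125 ± 16.3 and 147 ± 41.1 CPM in APP/PS1 microglia at 4 and 6 months; SD, n = 4, each genotype scaled separately) did not separate the genotypes and so gave no check of the labels.

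At 9 months, 4 further control libraries gave values without a test, here scaled together with the 8 others. The label of 1 of them ends in the replicate name 2_4, whose meaning was not stated, and it was counted as 1 library. One of those libraries had Cst7 at 286 CPM and the next highest 29.5 CPM, where no control library of 4 or 6 months exceeded 14 CPM. Tgfbr1 was at 2380 ± 204, 1620 ± 283 and 1670 ± 186 CPM at 4, 6 and 9 months (SD, n = 4 each), Skil at 311 ± 100, 157 ± 15.7 and 181 ± 17.5 CPM, and Dpysl2 at 2140 ± 232, 1440 ± 132 and 1410 ± 170 CPM. For those genes the 9-month mean lay close to the 6-month mean, and the 9-month libraries ran from 1400 to 1810, 162 to 203 and 1180 to 1570 CPM. Clta (237 ± 14.1, 318 ± 21.8 and 309 ± 12.9 CPM) and Herc2 (53 ± 9.14, 92.8 ± 23.6 and 89.4 ± 12.5 CPM) had 9-month means near their 6-month means as well. Mobp, in contrast, was at 4.64 ± 1.97, 26.9 ± 18 and 7.76 ± 2.44 CPM, and Eef1aknmt at 3.93 ± 0.841, 16.8 ± 8.37 and 3.47 ± 3.39 CPM, with the 9-month mean nearer that of 4 months and 9-month libraries at 5.92 to 11.1 and 1.39 to 8.53 CPM. Dynlt3 (84.5 ± 5.85, 48.4 ± 3.94 and 82.7 ± 34.5 CPM) and Smurf1 (33.2 ± 9.5, 14.8 ± 2.71 and 29.4 ± 7.76 CPM) were also nearer their 4-month mean at 9 months, with a wide spread for Dynlt3. The genes in this paragraph were picked by their values at 4 and 6 months, and the 9-month values of other named genes are not reported here. A return toward the 4-month mean was not tested.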

How the data were processed

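The deposited table holds raw counts per gene for each library, under 36982 symbols; it equals the 24 deposited library tables (53700 genes) summed by symbol in 24 of 24 libraries. Per the submitters' processing notes, FastQC 0.11.9, cutadapt 2.10, TopHat, SAMtools 1.10, Picard 2.13.2, HTSeq 0.11.0 and the GRCm39 build were used. Annotation release, strand setting and duplicate handling were not given in the sources used here. Thus reads of overlapping genes may be mixed. The available annotation is of another build and no positions are given.

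The count tests ran under R 4.3.3 using edgeR 4.0.16 (genes with CPM of 1 or more in at least 4 libraries, TMM factors, robust quasi-likelihood fit of the 8 libraries of a comparison, Benjamini-Hochberg adjustment, calls at 0.05). SE of a log2 fold change is its size divided by the square root of F. DESeq2 1.42.0 and limma 3.58.1 (voom with quality weights) were alternatives. The fits were tested on simulated data. The members and the gene lists were chosen with earlier results of these data known. The text names the 12 genes each way of smallest p with a mean of at least 5 CPM, up to 4 members of each list by p, cell type markers, members of small counts, and App and Prnp; Smurf2, Smad7, Smad4 and Itgb5 complete a count. Some genes within this rule are not reported here.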

Additional observations from a re-analysis of the deposited data

Results flagged for a closer look

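In 150 groups of 4 libraries, 14 held a single library far from the other 3 relative to the range of the group (about 1 group in 20 does so by chance), and in 8 of them it was a replicate 3. At 4 months replicate 3 was low for Csf1r (2730 CPM), Tmem119 (3450 CPM) and Cx3cr1 (6070 CPM) and high for Nufip2 (6.58 CPM), and replicate 4 was low for Grk6 (1.24 CPM). At 6 months replicate 3 was high for App (273 CPM), Fth1 (1630 CPM), Rpl41 (119 CPM) and Cacna1d (53.2 CPM). Other 6-month cases were Dpysl2 low in replicate 1 (1230 CPM), Grk6 high in replicate 2 (17.3 CPM) and F13a1 high in replicate 2 (10.2 CPM). Egr3 was also high in replicate 2 (0.325 CPM, the floor of that library), and P2ry12 was high in replicate 4 (18200 CPM).

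The age difference of Cst7 differed between the genotypes by 3.44 on the log2 scale in the edgeR interaction test.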

How the results depend on the processing

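In the control comparison edgeR called 0 genes in every alternative run with it, among them RLE factors, library totals, other filters, the replicate block and each library left out in turn (0 to 0), and limma-voom also called 0. DESeq2 called 18 genes, 30 without the 6-month replicate 3 and 79 without the replicate 3 of both ages; fits that pair another tool or scale with that loss, or leave out both, were chosen after seeing the data. In APP/PS1 microglia DESeq2 called 419 genes, limma-voom 5 (Cst7, Clec7a, Lpl and, named after their values were seen, Gnas and Gm20721), the replicate block 1 and fits with 1 library left out 1 to 4, in place of 3. In the interaction DESeq2 called 5 genes, in place of 1. The cause was not tested. Of 73 genes, 68 kept their direction in every alternative that could be fitted, 18 for Egr3, Vsig10l and Xrcc3 and 24 for the others. App (0.23) was −0.14 with limma-voom, between −0.34 and 0.41 with 1 library left out, and without the 6-month replicate 3 was −0.34 (DESeq2 and RLE factors), −0.32 (limma-voom) and −0.26 (library totals); without both replicates 3 it was −0.40 and, with DESeq2, −0.39. Trem2 (0.10) was −0.03 without the 6-month replicate 3 (DESeq2, RLE factors), −0.02 with limma-voom, −0.01 without both replicates 3, and −0.03 to 0.15 with 1 library left out. Ddit3 (0.14) was −0.03 with limma-voom without the 6-month replicate 3, −0.20 and −0.19 without both, and −0.06 to 0.26 with 1 left out. Under the replicate block Prnp was −0.29 and Enpp2 −0.16; Prnp ran from −0.07 to 0.95 with 1 left out. Of 768 list medians under alternatives, 67 moved by more than the spread between libraries. Same-numbered control libraries did not deviate together (correlations 0.00 to 0.09), so the numbers were not taken as pairs, and the replicate block left 560 genes at an unadjusted p under 0.05.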
